A study of Macaca mulatta with 8 samples.

Results

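Interferon regulatory factors and interferon receptor chains were followed in cultured microglia of rhesus macaques, the resident macrophages of the brain. The set held 10 genes, the transcription factors IRF1, IRF2, IRF3, IRF4, IRF5, IRF7, IRF8 and IRF9 and the receptor chains IFNAR1 and IFNGR1. They were chosen by gene symbol, and each symbol stood on 1 of the 35432 genes in every count table. Microglia came from subcortical white matter of 4 adult animals, the males R07110 (13 years) and R12016 (9 years) and the females R02046 (19 years) and R14143 (6 years), and were kept in serum and M-CSF for 8 days. On day 7, the cells of each animal received ultrapure lipopolysaccharide (uLPS), a ligand of Toll-like receptor 4 (TLR4), at 10 µg/mL for 16 h, and part of the cells had first been incubated for 1 h with 5 µM MRS2578. MRS2578 blocks P2RY6, which senses UDP outside the cell, and the comparison asks how blocking P2RY6 changes the response to TLR4. Each animal gave 1 library per condition, so there were 4 libraries with uLPS and 4 with uLPS and MRS2578. Both conditions contain uLPS, and no library without uLPS was analysed here, so induction by uLPS itself was not measured. The study's methods describe MRS2578 as selective for P2RY6 but not fully specific.

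Interferon regulatory factors bind DNA elements with repeated GAAA letters and are known for switching on interferons and the genes that interferons induce. After TLR4 engagement, the adaptor TICAM1 leads to phosphorylation of IRF3, which drives the gene of interferon beta. Secreted interferon beta signals through IFNAR1 and IFNAR2, and STAT2 then joins IRF9 on the promoters of interferon-stimulated genes, IRF7 among them. Interferon gamma signals through IFNGR1 and IFNGR2 and induces IRF1. IRF8 acts mainly as a factor of the myeloid lineage and is needed for microglia. IRF3 and IRF7 are controlled to a large part by phosphorylation, which RNA counts do not show.

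Total counts ran from 9231109 to 32790348 per library. A count of 0 allows up to 3 counts, equal to 0.0915 CPM (counts scaled to library size by edgeR's TMM factors) in the largest library and 0.325 CPM in the smallest, and this limit covers counting error only. Of 11 microglia markers in the tables, 9 were at 1 CPM or above in all 8 libraries, but CX3CR1 (0.051 to 2.21 CPM) and TMEM119 (0 to 0.316 CPM), which mark microglia in the intact brain, were at or near 0. The summed level of the microglia markers was 3939 to 4858 CPM with uLPS alone and 3709 to 4843 CPM with MRS2578. Lymphocyte markers summed to at most 0.758 CPM in any library, astrocyte markers to 88.6 to 204.8 CPM with uLPS alone and 112 to 190 CPM with MRS2578, oligodendrocyte markers to 238 to 407 and 223 to 304 CPM, and endothelial and mural markers to 158 to 244 and 158 to 296 CPM. In bulk RNA, fewer cells of a type and less RNA per cell cannot be told apart.

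For R02046, the sample labels and the study's supplementary expression table name the conditions the other way round. Each of the 8 expression columns of that table matched 1 library up to a constant factor. The label named the same donor and condition in 6 columns, and the 2 columns of R02046 were crossed. Which source holds cannot be told from them, so the effect of MRS2578 on each of the 10 genes is given as labelled, with R02046 exchanged (its 2 libraries taken with each other's condition), and over the other 3 donors. R02046 with uLPS was also the library of lowest depth.

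To show which known DNA elements lie close to these genes, the 300 bases before each annotated transcript start were searched for 3 letter patterns in either orientation. The interferon-stimulated response element (ISRE) core, GAAA followed by 2 bases of any kind and GAAA, is a pattern bound by interferon regulatory factors. The interferon gamma-activated site (GAS), TTC followed by 3 bases of any kind and GAA, is found near genes that respond to interferon gamma, and GGG followed by 3 bases of any kind and TTCC is bound by NF-kB. The 10 genes had 34 starts. Of these windows, 1 held the ISRE core, 9 a GAS and 8 an NF-kB pattern, against 3.75%, 6.85% and 5.94% of the 49243 windows of all genes. By gene, 1, 5 and 4 of the 10 genes held them, against 6.4%, 11.4% and 9.53% of 20782 genes. The 10 genes had more starts per gene than all genes had, and windows of starts that lie close together overlap. The windows of IRF1, IRF3, IRF4 and IRF7 held none of the 3 patterns. A match describes the letters and does not show binding. The search rests on the annotated starts and exact letters, so absence does not show that a gene lacks such an element. The sites printed here are the only ISRE core, in IRF2, both GAS matches of IRF8, the GAS of IRF9, the partner of STAT2, and an NF-kB match of IRF5, a TLR factor. They lie in the RefSeq annotation of Mmul_10 at chr5:181790502-181790531 (IRF2, minus strand), chr20:72926424-72926452 and chr20:72926443-72926471 (IRF8, plus strand), chr7:86249041-86249069 (IRF9, plus strand) and chr3:155188902-155188931 (IRF5, plus strand). They are read 5′ to 3′ on the gene's strand, with the match in capitals and 10 bases on each side.
IRF2 ISRE core: ctggggaagcGAAAATGAAAttgacttttc
IRF8 GAS, distal: ggaaagtgatTTCTCGGAAagccgagcgc
IRF8 GAS, proximal: agccgagcgcTTCAAAGAAggcgggccgc
IRF9 GAS: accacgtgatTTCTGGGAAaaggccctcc
IRF5 NF-kB: gcgggagtagGGGACTTTCCcagtctcgca

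The IRF2 match ended 223 bases before its nearest start. The matches of IRF8 ended 136 and 117 bases before its start, and that of IRF9 ended 6 bases before the start of its downstream transcript.

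With the deposited labels, 9 of the 10 genes had a fitted level that was lower with MRS2578, and none passed the test after adjustment. This count of 0 stands beside 0% of the 12131 genes tested (edgeR's quasi-likelihood test, smallest adjusted p = 0.878 over all genes). At an unadjusted p under 0.05, 2 of the 10 (IRF1 and IRF7) were lower, against 2.44% of all genes, and 5.14% of all genes passed in either direction. DESeq2's Wald test called 1 gene and edgeR's likelihood ratio test 5, none of them among the 10. The median log2 fold change of MRS2578 over uLPS was -0.12 for the 10 genes and -0.0097 for all genes, and 52.1% of all genes were below 0. With R02046 exchanged, 0 of the 10 passed where 0.618% of all genes did, and 4 of the 10 (IRF1, IRF5, IRF7 and IFNAR1) were lower at an unadjusted p under 0.05, against 9.59% of all genes. There, 8 of the 10 were below 0, against 49.8% of all genes, with a median of -0.19. Without R02046, 0 of the 10 passed where 0% of all genes did, and 3 of the 10 (IRF1, IRF5 and IRF7) were lower at an unadjusted p under 0.05, against 7.86%. There, 8 of the 10 were below 0, against 50.5% of all genes, with a median of -0.17. In R07110, R12016 and R14143, whose labels are not in question, IRF1, IRF3, IRF5, IRF7, IRF9 and IFNGR1 were each lower with MRS2578 in all 3 animals, though in R12016 the log2 difference was only -0.0011 for IFNGR1 and -0.027 for IRF9. These were 6 of the 10, beside 19.8% of all genes, and none of the 10 was higher in all 3, beside 17% of all genes.

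**Figure D1:**
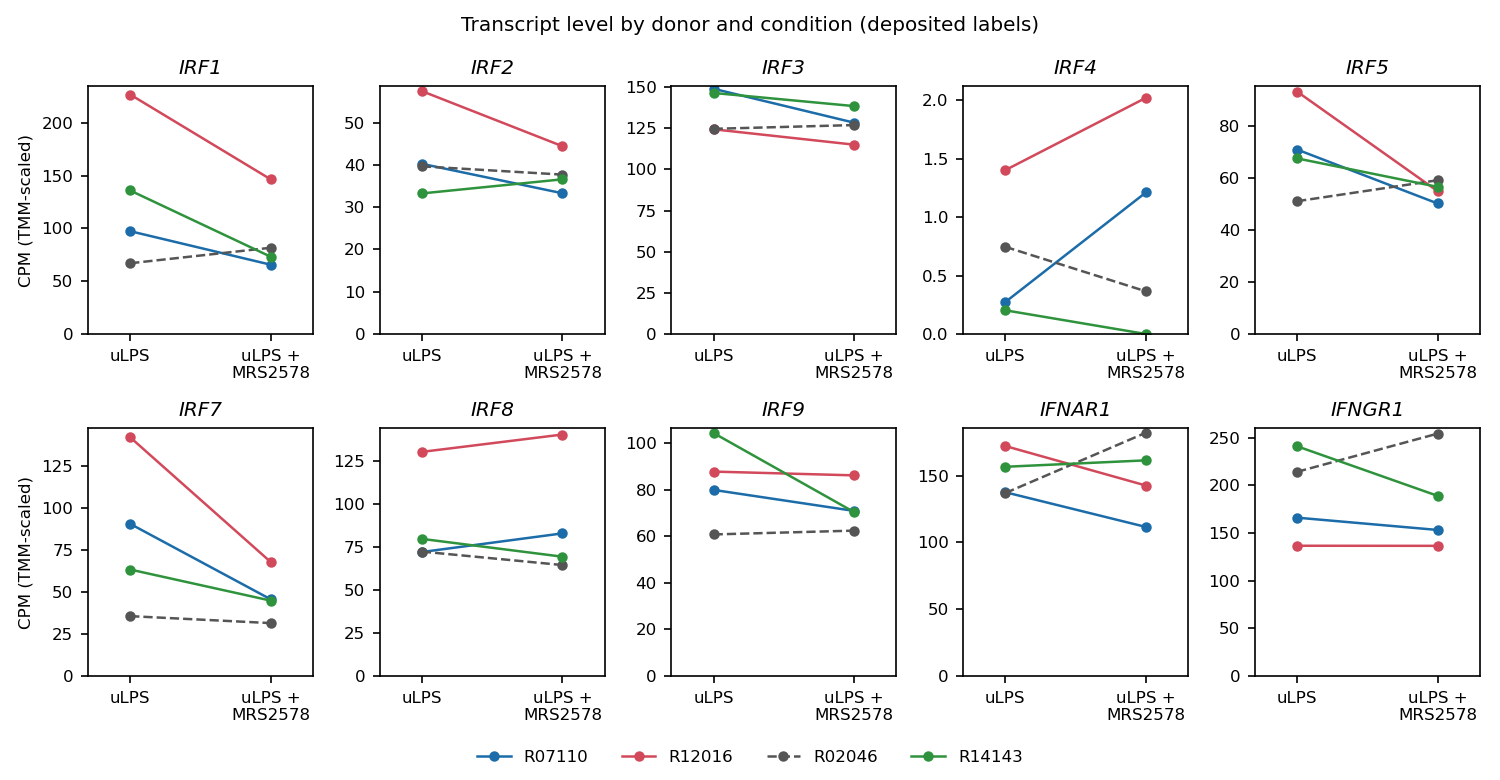
Level of each of the 10 genes (CPM, linear axis from 0, a scale of its own per gene) in the 8 libraries, with points of the same animal joined and R02046 dashed, as labelled. Lines of IRF7 go down in all 4 animals, and those of IRF1 and IRF5 go down in every animal except R02046.

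IRF7, the factor that amplifies type I interferon production, had the largest difference with the deposited labels among the 9 genes well above the limit of detection. IRF7 (ENSMMUG00000004014, chromosome 14, 668505 to 672316) was at 90.8 CPM with uLPS alone and 45.7 CPM with MRS2578 in R07110, at 142 and 68.0 CPM in R12016, at 35.7 and 31.6 CPM in R02046 and at 63.5 and 44.98 CPM in R14143. It was lower with MRS2578 in each of the 4 animals as labelled, and exchanging the R02046 libraries turns that animal's sign. The ranges of the conditions overlapped. The mean was 83.1 ± 45.5 CPM (SD, n = 4) with uLPS and 47.6 ± 15.1 CPM with MRS2578. The fitted log2 fold change was -0.69 (SE 0.16, adjusted p = 0.878), a fold of 0.62 with an unadjusted 95% confidence interval of 0.474 to 0.811, and by its unadjusted p of 0.00403 it ranked 20 of all genes tested. With R02046 exchanged it was -0.62 (SE 0.19, adjusted p = 0.176), and without R02046 it was -0.85 (SE 0.14, adjusted p = 0.138).

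IRF1, a direct target of interferon gamma signalling and NF-kB, followed the same pattern except in R02046. IRF1 (ENSMMUG00000008100, chromosome 6, 129931179 to 129938722) was at 97.3 CPM with uLPS alone and 65.6 CPM with MRS2578 in R07110, at 226.7 and 146.4 CPM in R12016, at 67.0 and 81.6 CPM in R02046 and at 136 and 73.1 CPM in R14143. R12016 was the highest animal in both conditions, and the ranges overlapped. The mean was 132 ± 69.3 CPM with uLPS alone and 91.7 ± 37.0 CPM with MRS2578 (SD, n = 4). The log2 fold change was -0.46 (SE 0.19, adjusted p = 0.878) as labelled, -0.60 (SE 0.11, adjusted p = 0.0599) with R02046 exchanged and -0.70 (SE 0.11, adjusted p = 0.133) without R02046. The study lists IRF1 among the genes it found changed in these same libraries, so its direction here is not independent evidence.

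IRF5 acts downstream of TLRs on inflammatory cytokine genes. IRF5 (ENSMMUG00000018478, chromosome 3, 155187611 to 155199826) was at 71.1 CPM with uLPS alone and 50.3 CPM with MRS2578 in R07110, at 93.4 and 55.0 CPM in R12016, at 51.2 and 59.3 CPM in R02046 and at 67.7 and 56.7 CPM in R14143. As labelled, its conditions overlapped, as did those of the other 9 genes, while 1.08% of all genes did not overlap. With R02046 exchanged IRF5 was the only one of the 10 without overlap, against 2.97% of all genes. The log2 fold change of IRF5 was -0.33 (SE 0.16, adjusted p = 0.878) as labelled, -0.43 (SE 0.11, adjusted p = 0.124) with R02046 exchanged and -0.51 (SE 0.13, adjusted p = 0.210) without R02046. Without R12016 it was -0.18 as labelled. The animals came close together with MRS2578, at 55.3 ± 3.77 CPM, against 70.9 ± 17.4 CPM with uLPS (SD, n = 4), and the difference in spread was not tested.

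IRF3 and IRF9 differed less. IRF3 (ENSMMUG00000022735, chromosome 19, 49629971 to 49637050), the kinase-activated factor of the TLR4 route, was at 136 ± 13.4 CPM with uLPS alone and 127 ± 9.60 CPM with MRS2578 (SD, n = 4), with 115 to 149 CPM over all 8 libraries. Its log2 fold change was -0.096 with an unadjusted 95% confidence interval of -0.31 to 0.12, so a drop to a fold of 0.808 lies within the interval. It was -0.11 (interval -0.29 to 0.076) with R02046 exchanged and -0.14 (interval -0.36 to 0.090) without R02046. The exons of IRF3 overlap those of BCL2L12 on the opposite strand by 20 bases, and the strand setting of the counting is not given, so a small share of its reads is uncertain. IRF9 (ENSMMUG00000040817, chromosome 7, 86248586 to 86254350) is the DNA-binding partner of STAT2. It was at 79.9 and 70.9 CPM in R07110, at 87.8 and 86.1 CPM in R12016, at 60.8 and 62.4 CPM in R02046 and at 104.3 and 70.3 CPM in R14143. Most of its difference of -0.18 on the log2 scale (interval -0.48 to 0.11) lay in R14143, where the log2 difference was -0.57, against -0.17 in R07110 and -0.027 in R12016, and without R14143 the fitted value was -0.058. IRF9 was at -0.20 (interval -0.46 to 0.054) with R02046 exchanged and -0.26 (interval -0.58 to 0.064) without R02046.

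IRF8 and IRF2 showed no common direction over the animals. IRF8 (ENSMMUG00000008125, chromosome 20, 72926578 to 72949798) was at 72.0 CPM with uLPS alone and 82.8 CPM with MRS2578 in R07110, at 130.05 and 140.1 CPM in R12016, at 72.2 and 64.4 CPM in R02046 and at 79.6 and 69.2 CPM in R14143. It was higher with MRS2578 in R07110 and R12016 and lower in R02046 and R14143 as labelled, and with R02046 exchanged it was lower in R14143 alone. Its log2 fold change was -0.013 as labelled, with an interval of -0.27 to 0.24, 0.068 (interval -0.15 to 0.29) with R02046 exchanged and 0.037 (interval -0.24 to 0.32) without R02046. IRF2 (ENSMMUG00000015087, chromosome 5, 181701840 to 181790289), which competes with IRF1 for its DNA element, was at 42.7 ± 10.4 CPM with uLPS alone and 38.0 ± 4.67 CPM with MRS2578 (SD, n = 4), a log2 fold change of -0.15 (interval -0.43 to 0.13). It was -0.11 (interval -0.38 to 0.16) with R02046 exchanged and -0.17 (interval -0.50 to 0.16) without R02046. As labelled, R14143 was higher with MRS2578 and the other 3 animals were lower.

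IRF4 (ENSMMUG00000018513, chromosome 4, 169701165 to 169715813), known for its role in lymphocytes and in alternatively activated macrophages, had low counts, from 0 to 32. Its counts with uLPS and with MRS2578 were 9 and 30 in R07110, 22 and 32 in R12016, 7 and 5 in R02046, and 4 and 0 in R14143. The fitted log2 fold change was 0.62 with an interval from -0.92 to 2.16, so these counts do not fix its direction. It was 0.97 (interval -0.33 to 2.27) with R02046 exchanged and 0.95 (interval -0.67 to 2.57) without R02046.

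The receptor chains differed little as labelled. IFNAR1 (ENSMMUG00000003961, chromosome 3, 13192424 to 13224437) binds type I interferons together with IFNAR2. It was at 138 CPM with uLPS alone and 112 CPM with MRS2578 in R07110, at 172 and 143 CPM in R12016, at 137 and 182 CPM in R02046 and at 157 and 161 CPM in R14143. The log2 fold change was -0.031 (interval -0.36 to 0.30) as labelled, -0.23 (SE 0.097, adjusted p = 0.282) with R02046 exchanged and -0.18 (SE 0.11, adjusted p = 0.543) without R02046. R02046 had the largest difference of the 4 animals, 0.41 on the log2 scale as labelled. IFNGR1 (ENSMMUG00000062426, chromosome 4, 40817417 to 40837449) is the ligand-binding chain for interferon gamma. It was at 166 and 153 CPM in R07110, at 137 and 137 CPM in R12016, at 214 and 254.3 CPM in R02046 and at 241 and 189 CPM in R14143. Its log2 fold change was -0.056 (interval -0.33 to 0.22) as labelled, -0.18 (SE 0.089, adjusted p = 0.369) with R02046 exchanged, and -0.16 (SE 0.11, adjusted p = 0.582) without R02046.

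**Figure D2:**
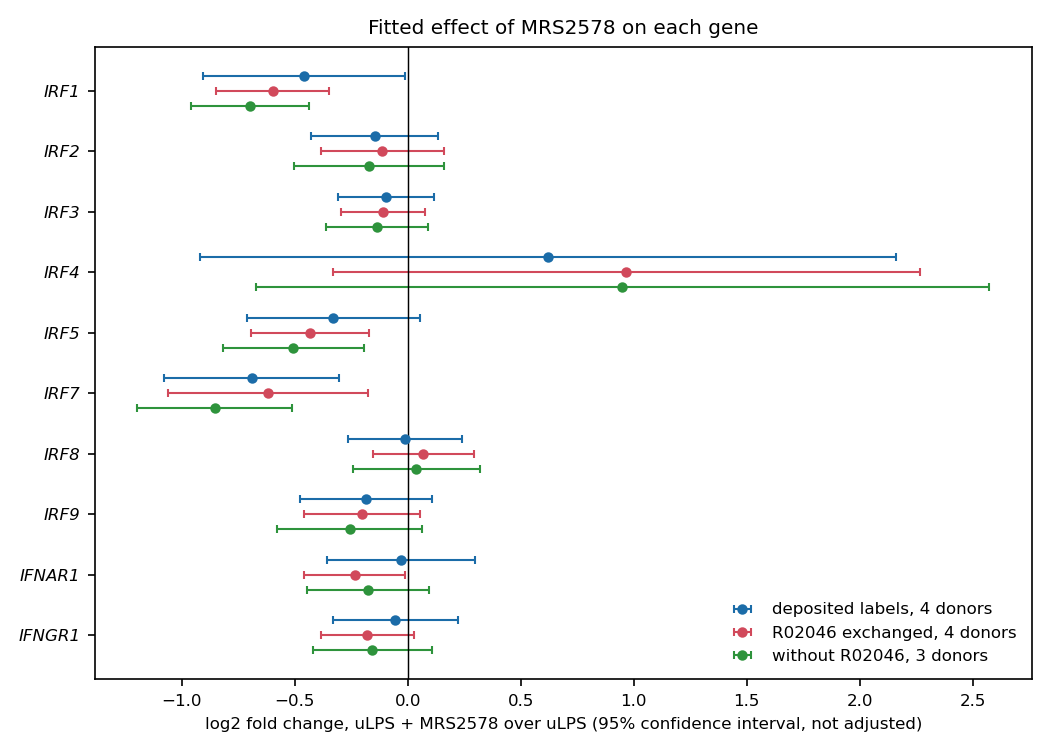
Fitted log2 fold change of uLPS + MRS2578 over uLPS (points) with unadjusted 95% confidence intervals (bars) for each gene, with the deposited labels, with R02046 exchanged and without R02046. The intervals of IRF1 and IRF7 lie below 0 in all 3, those of IRF5 in the last 2, and that of IFNAR1 with R02046 exchanged only. Those of IRF2, IRF3, IRF4, IRF8, IRF9 and IFNGR1 include 0 in all 3.

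Levels of different genes were compared as CPM per kb of exon. The mean over the 8 libraries was 78.0 CPM per kb for IFNGR1, 61.7 for IRF3, 42.2 for IRF1, 35.0 for IRF9, 26.8 for IRF7, 26.6 for IRF8, 26.3 for IFNAR1, 14.2 for IRF5, 8.98 for IRF2 and 0.342 for IRF4. IFNAR1 was above IRF5, IRF5 above IRF2 and IRF2 above IRF4 in all 8 libraries. Neighbours higher up changed places between libraries: IFNGR1 was above IRF3 in 6 of 8, IRF3 above IRF1 in 6, IRF1 above IRF9 in 5, IRF9 above IRF7 in 6, IRF7 above IRF8 in 3 and IRF8 above IFNAR1 in 3. IRF7 ran from 12.9 to 58.4 CPM per kb, IRF1 from 24.8 to 85.6, IFNGR1 from 57.1 to 106.4 and IRF3 from 53.9 to 69.8.

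**Figure D3:**
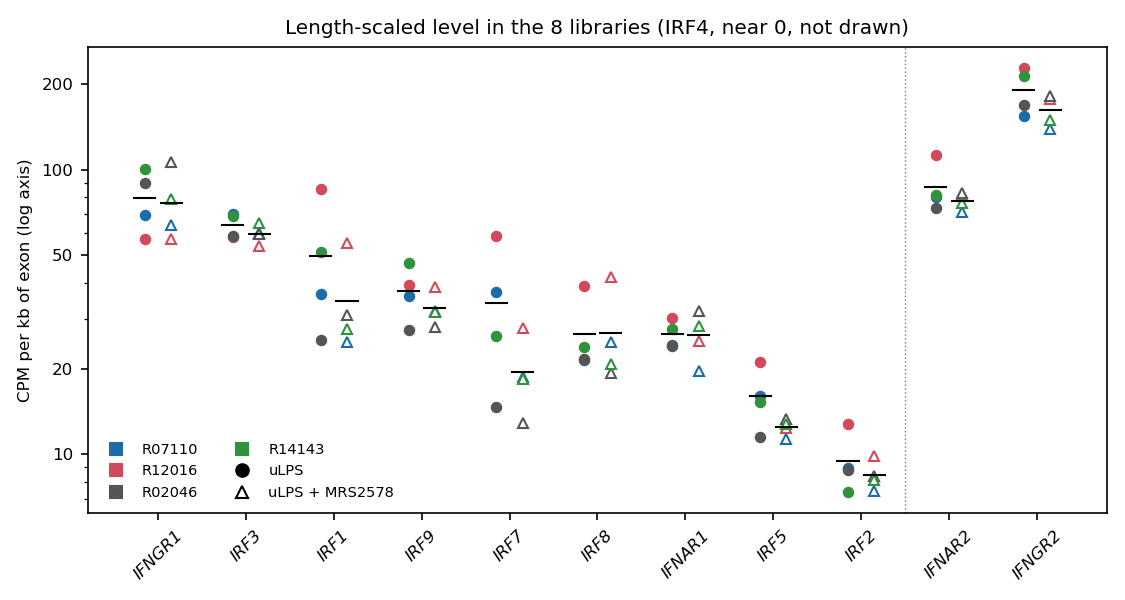
CPM per kb of exon (log axis) in each library for 9 of the 10 genes, ordered by mean level, and for the partner chains IFNAR2 and IFNGR2 to the right of the dotted line. Colours mark animals, filled circles uLPS, open triangles uLPS + MRS2578, and short lines the mean of 4 libraries. Each partner chain lies above its receptor chain in all 8 libraries, and on this log axis IRF7 and IRF1 are the most spread out of the 9 genes.

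Both partner chains were more abundant per kb than the chains in the set. The ratio of IFNAR2 to IFNAR1 was 3.16 ± 0.409 (SD over 8 libraries, range 2.58 to 3.74), and that of IFNGR2 to IFNGR1 was 2.38 ± 0.770 (range 1.70 to 3.98). IFNAR2 was at 401 ± 81.4 CPM with uLPS alone and 359 ± 25.04 CPM with MRS2578, and IFNGR2 at 472 ± 86.0 and 400 ± 50.7 CPM (SD, n = 4). Their log2 fold changes were -0.14 (SE 0.12) and -0.23 (SE 0.13) as labelled, -0.23 and -0.28 with R02046 exchanged and -0.25 and -0.34 without R02046, and neither passed the test. Of the 4 tested receptor and family genes outside the set, these chains included, 3 were below 0 as labelled with a median of -0.18 and 0 called, and IRF2BP2, a cofactor of IRF2, was at -0.24 (SE 0.17). The median of the list was -0.25 with R02046 exchanged, and -0.25 over 5 tested genes without R02046. IFNLR1, the chain for interferon lambda, had at most 15 counts in any library.

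IRF7 and IRF8 differed between animals. In a test of the donor term, added after the values were seen, 2 of the 10 genes passed (IRF7, adjusted p = 0.0382, and IRF8, adjusted p = 0.0261), against 7.35% of all genes. With R02046 exchanged, 4 of the 10 passed (IRF1, IRF7, IRF8 and IFNGR1), against 18.9% of all genes. With uLPS, IRF8 was highest in R12016 at 130.05 CPM, while the other 3 animals lay between 72.0 and 79.6 CPM. IRF1, IRF2, IRF4, IRF5, IRF7, IRF8 and IFNAR1 were each highest in R12016 with uLPS and IRF3 and IFNGR1 were lowest there. Age and sex cannot be told apart from the animal with 4 donors.

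As a description of shared patterns, the Pearson correlation of log2 CPM was taken over the 8 libraries, which share animals and depth. IRF7 correlated with IRF5 at 0.84 and with IRF1 at 0.84, and IRF8 with IFNGR1 at -0.77. Among all genes tested, the 3 most like IRF7 were PLAGL1, IFI16 and HELZ2 (0.972 to 0.976), and the 3 most like IRF1 were STX11, ARRDC3 and DGCR2 (0.982 to 0.988). The 3 most like IRF5 were TNFAIP8L3, IDO1 and RAP2C (0.970 to 0.972), and those most like IRF8 were VEZF1, H2BC18 and TMEM140 (0.971 to 0.977). These are the highest values among 12131 genes, and the highest for IRF4, a gene of low counts, was also 0.964.

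The genes around these factors were counted from lists of textbook function, which were chosen with earlier results of these data known. Interferon genes themselves had few counts at 16 h. Of 11 in the tables, 0 passed the filter on low counts. IFNB1, the gene of interferon beta, had 17 counts with uLPS in R07110, 7 with uLPS and 5 with MRS2578 in R12016, 1 with uLPS in R02046 and 0 in the other 4 libraries. IFNG had 0 counts in all 8 libraries, and IFNL1 at most 2.

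For each list below, the share of all genes below 0 was 52.1% as labelled, 49.8% with R02046 exchanged and 50.5% without R02046. These assignments share the libraries of R07110, R12016 and R14143, so their counts are not independent of each other. On the route from TLR4 to the factors, 10 of 14 genes were below 0 on the log2 scale as labelled, with a median of -0.15 and 0 called. With R02046 exchanged, 12 were below 0 with a median of -0.25, and TANK, an adaptor that binds the kinase TBK1, fell (log2 fold change -0.74, adjusted p = 0.0430), where 0.519% of all genes fell. Without R02046, 11 were below 0 with a median of -0.28 and 0 called. TANK was at -0.57 (SE 0.22, adjusted p = 0.878) as labelled and -0.86 without R02046. As labelled, TICAM1 was at -0.37 (SE 0.14), TLR4 at -0.21 (SE 0.15) and CD14 at -0.22 (SE 0.21). The last 2 are the receptor and coreceptor of uLPS. With R02046 exchanged TICAM1, TLR4 and CD14 were at -0.42, -0.37 and -0.30, and without R02046 at -0.53, -0.38 and -0.35.

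Genes that carry the receptor signal were listed together with inhibitors of it, such as PTPN2. Of these genes, 8 of 11 were below 0 as labelled with a median of -0.038 and 0 called. With R02046 exchanged 11 of 11 were below 0 with a median of -0.16, and without R02046 10 of 11 with a median of -0.13, again with 0 called. As labelled, STAT2 was at -0.37 (SE 0.17), the phosphatase PTPN2 at -0.36 (SE 0.14) and JAK1 at 0.13 (SE 0.12). With R02046 exchanged they were at -0.46, -0.39 and -0.11, and without R02046 at -0.55, -0.50 and 0.013. Of 9 DNA partners of the factors, 8 were below 0 as labelled with a median of -0.23 and 0 called. With R02046 exchanged and without R02046, 7 were below 0 with medians of -0.27 and -0.29 and 0 called. As labelled, BATF2, itself induced by interferon gamma, was at -0.80 (SE 0.24), JUNB at -0.35 (SE 0.15), NFKB1 at -0.30 (SE 0.20) and SPI1, the partner of IRF8 on composite elements, at -0.23 (SE 0.12). Without R02046 BATF2 was at -0.99, JUNB at -0.48, NFKB1 at -0.55 and SPI1 at -0.35.

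The interferon-stimulated genes had lower median log2 fold changes than the factors, a difference that was not tested. Of the type I targets, 20 of 20 tested were below 0 as labelled, with R02046 exchanged and without R02046, with medians of -0.40, -0.51 and -0.62. With the labels 0 were called and 7 were lower at an unadjusted p under 0.05, against 2.44% of all genes. With R02046 exchanged 1 was called, XAF1, which fell (log2 fold change -0.65, adjusted p = 0.0458), against 0.519% of all genes, and 18 were lower at an unadjusted p under 0.05, against 9.59%. Without R02046, 0 were called and 18 were lower at an unadjusted p under 0.05, against 7.86%. In the exchanged assignment, the calls of XAF1 and TANK were lost with edgeR's earlier quasi-likelihood estimation, and those of XAF1, TANK and IDO1 without the donor block, without R07110 and without R12016. As labelled, the antiviral GTPase MX1 was at -0.41 (SE 0.22), IFI6 at -0.48 (SE 0.17), the RNA-binding IFIT2 at -0.63 (SE 0.19) and the exonuclease ISG20 at -0.56 (SE 0.14).

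By animal, 19 of these 20 type I targets were lower with MRS2578 in R07110, 20 in R12016, 17 in R14143 and 4 in R02046 as labelled, where about 50% of all genes were lower in each animal (49.7%, 50.2%, 53.2% and 50%). The median log2 difference was -0.79 in R07110, -0.79 in R12016, -0.29 in R14143 and 0.25 in R02046. For these targets, R02046 as labelled thus went the other way from the other 3 animals, as it did for IRF1 and IRF5. IRF7 was lower in R02046 as in the others. The type II targets are named by textbook function, and whether interferon gamma acted on them here was not tested. Of 10 type II targets tested, 9 were below 0 as labelled with a median of -0.45 and 0 called. The chemokine CXCL11 was at -1.14 (SE 0.27), the proteasome subunits PSMB9 at -0.49 (SE 0.096) and PSMB8 at -0.41 (SE 0.16), and the tryptophan-degrading enzyme IDO1 at -0.66 (SE 0.37). With R02046 exchanged, 10 of 10 were below 0 and 1 was called, IDO1, which fell (log2 fold change -1.04, adjusted p = 0.0427), where 0.519% of all genes fell. Their median was -0.50 there, and -0.60 without R02046, where 10 of 10 were below 0 and 0 were called. By animal as labelled, 8 of these 10 type II targets were lower in R07110, 10 in R12016, 10 in R14143 and 5 in R02046. Their median log2 difference in R02046 was -0.099. Of the 17 symbols on this list 10 were used, and the guanylate-binding proteins and the TAP transporter genes were not analysed here.

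**Figure D4:**
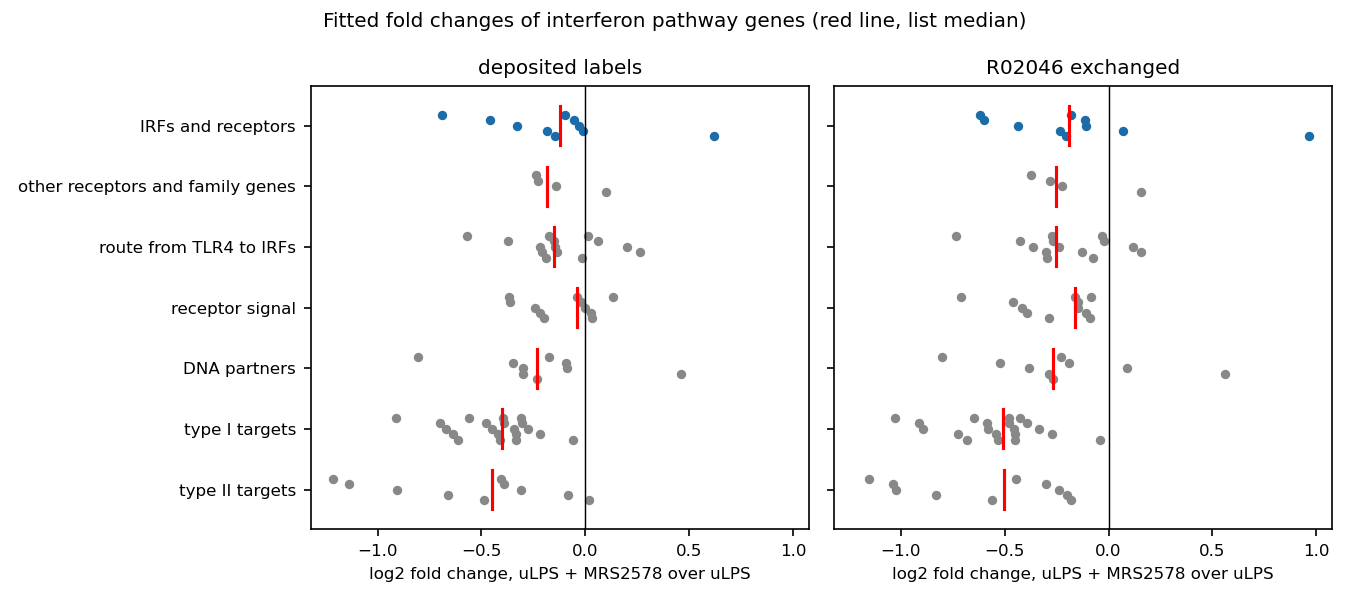
Fitted log2 fold change of uLPS + MRS2578 over uLPS for each tested gene of 7 lists (points), with the list median as a red line, for the deposited labels on the left and R02046 exchanged on the right. The 20 type I targets lie below 0 on both sides, with medians of -0.40 and -0.51, while the 10 factors and receptor chains have medians of -0.12 and -0.19.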

How the data were processed

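The 8 RNA libraries of cultured rhesus macaque microglia were made with a directional poly(A) kit and were sequenced on an Illumina NovaSeq. The deposited values are whole-number counts of unique reads within exons per Ensembl gene, which the authors did not normalize. The paper's methods name fastp, STAR, SAMtools and HTSeq, whereas the submitters' processing notes name Trimmomatic (version 0.30), TopHat2 (2.0.14), SAMtools (1.3) and HTSeq (0.6.1p1). Both give the Mmul_10 genome. The strand setting and the annotation release are not given in the sources used here. The labels give 10 ng/mL M-CSF and the paper another dose.

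Here, counts were analysed in R (4.3.3) with edgeR (4.0.16) as its quasi-likelihood test, with filterByExpr (minimum count 10), TMM scaling, a block for the donor and adjustment by Benjamini-Hochberg over all 12131 genes tested. All 10 genes passed the filter. The script was tested on simulated data. Conditions and donors came from the labels, which give no sequencing batch. The libraries of a donor come from the same animal, and their deviations from the condition means correlated at 0.458 to 0.602 across genes. CPM values are TMM-scaled, log2 CPM has a prior count of 2, and CPM per kb uses the union of exons in the NCBI annotation of Mmul_10. Depth was 9231109 to 32790348 counts, and genes with few counts have wide intervals. Genes with a blank symbol (11503) were tested but not named.

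The genes, lists and tests were chosen with earlier results of these data known. All 10 genes are named. From each pathway list, the 2 genes of highest mean CPM and the 2 of smallest p are named, except where a result is not reported here, with genes past the threshold in the exchanged assignment added after their values were seen. For 4 of the factors the 3 genes with the highest correlation are named. Alternatives were DESeq2 (1.42.0) size factors and Wald test, edgeR's likelihood ratio test and earlier quasi-likelihood estimation, other filters, no donor block, each donor left out, other scalings and lengths, and the R02046 exchange. The donor test and the likelihood ratio test without R02046 were added after seeing the data. Protein sequences and the authors' own fold changes were not used here.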

Additional observations from a re-analysis of the deposited data

Results flagged for a closer look

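With uLPS, the IRF8 level of R12016 stood apart from the other 3 animals. It was 130.05 CPM, while the others lay between 71.95 and 79.57 CPM, and its gap to the nearest was 0.869 of the whole range, above Dixon's 95% critical value for 4 samples. Of 30 groups of 4 libraries checked, this was the only 1, and chance gives about 1 in 20. R12016 was also highest for IRF8 with MRS2578, at 140.1 CPM.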

How the results depend on the processing

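With the deposited labels, 0 genes were called by edgeR's quasi-likelihood test (624 at an unadjusted p under 0.05), and 0 also without the replicate block, under the other filters, size factors and earlier estimation, and without each donor in turn (0 to 0). DESeq2's Wald test called 1 gene and edgeR's likelihood ratio test called 5, none of them among the 10. With R02046 exchanged, 75 of 12131 genes tested were called, 583 by DESeq2, 616 by the likelihood ratio test and 39 by the earlier estimation. Leaving out 1 more donor gave 0 of 12082 (R07110), 5 of 12207 (R12016) and 918 of 12128 (R14143). Of the 10 genes, 2 (IRF1 and IRF5) were called there by DESeq2, by the likelihood ratio test and without R14143, and 0 to 2 over the donors left out. Without R02046, the likelihood ratio test, added later, called 477 of 12295 genes and 3 of the 10 (IRF1, IRF5 and IRF7). IRF7 had an adjusted p of 9.84e-05 there, against 0.138 by the quasi-likelihood test. In the main fit the pathway lists held 14 route, 11 receptor signal, 9 DNA partner, 20 type I, 10 type II and 4 other family genes tested. With R02046 exchanged, 3 of these were called (TANK, XAF1 and IDO1), 21 with DESeq2, 17 with the likelihood ratio test and 1 (IDO1) with the earlier estimation. Over the donors left out there, 0 to 23 were called. The 23 were without R14143, among them JUN, which rose (log2 fold change 0.76). The likelihood ratio test without R02046 called 23. The donor test called 2288 genes and 4 of the 10 with R02046 exchanged, against 892 and 2.

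IRF1, IRF2, IRF3, IRF5, IRF7 and IRF9 kept their direction in all 20 alternatives. The log2 fold change of IRF8 turned positive without the block (0.011), in that likelihood ratio test (0.037) and with R02046 exchanged (0.068, DESeq2 0.062, likelihood ratio 0.068, earlier estimation 0.068, no block 0.076, and over the donors left out 0.021 without R07110, 0.061 without R12016 and 0.16 without R14143). Over the donors left out as labelled it ran from -0.089 (without R07110) to 0.045 (without R14143), that of IRF4 from -0.20 (without R07110) to 0.95 (without R02046), that of IFNAR1 from -0.18 (without R02046) to 0.057 (without R07110, with 0.054 without R12016) and that of IFNGR1 from -0.16 (without R02046) to 0.039 (without R14143). IRF4 was at -0.041 with DESeq2. The cause was not tested. With the longest transcript as length, IRF3 with uLPS was at 79.6 CPM per kb, against 63.8, and the order of levels was kept. Without TMM scaling 8 of the 10 kept their rank. Without the replicate block, the exchanged assignment gave 0 genes called in place of 75 and 0 genes of the pathway lists in place of 3, and no call changed as labelled. IRF4 and the interferon genes are limited by their low counts.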
